A study of Mus musculus with 3 samples.

Results

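TGF-β-stimulated NIH3T3 fibroblasts were compared with unstimulated NIH3T3 fibroblasts, gene by gene, across a whole transcriptome table. The comparison used 2 of the 3 libraries of the series and all 15554 rows of the table, which carry 15513 gene symbols. NIH3T3 is a long-established fibroblast line from mouse embryos. The cells of all groups were kept in serum-free medium (IMDM) for 24 h before stimulation. The medium of all groups was then replaced by serum-free IMDM, with no stimulation for CTRL cells and 4 ng/mL of TGF-β for TGF-β cells. Both were kept so for 24 h. The third library came from cells given GDF15 at 100 ng/mL for 24 h, and its values are set beside the others below. RNA of 3 samples was pooled within each treatment, so that 1 library stands for each treatment and no test between treatments could be made. All changes below therefore describe these libraries.

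Expression was given as FPKM, the density of sequenced fragments along the exons of a gene, scaled to the size of the library. The change of a gene is the difference in log2(FPKM + 1), TGF-β minus CTRL, and a gene was called up- or down-regulated when that difference passed 1, a 2-fold change. Below, "rose" and "fell" are kept for such genes, and "over", "under", "within" and "passed 2-fold" refer to the same criterion. Fold values are plain ratios of FPKM, which at low levels can be above 2 for genes that did not pass. The libraries held about 18.45 (CTRL), 21.5 (GDF15) and 17.7 (TGF-β) fragments in units of 1e6, estimated from the steps between low FPKM values. Counting intervals (95%, exact binomial) rest on those estimates and cover counting error only. Of 13 fibroblast markers, 12 were at 1 FPKM or more in both libraries, while *Lum* was listed at 0 in CTRL. Of the 13, 6 were higher and 7 lower in TGF-β, with *Vim* at 2245 FPKM in CTRL and 1699.8 in TGF-β and *Pdgfra* at 61.3 and 35.05, and their summed level was 17651 and 19103 FPKM. The 6 endothelial and 5 adipocyte markers were all under 1 FPKM in both. In bulk RNA, fewer cells of a kind and less RNA per cell cannot be told apart.

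TGF-β is a secreted dimer that binds the type II receptor TGFBR2, which recruits and activates the type I receptor TGFBR1. The receptors phosphorylate SMAD2 and SMAD3, which enter the nucleus with SMAD4 and regulate target genes, among them the inhibitors that dampen the signal. In fibroblasts the pathway is known for driving deposition of extracellular matrix and the conversion to contractile myofibroblasts, and in many epithelial cells for halting proliferation.

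The bases before the transcription start are shown for 5 up-regulated genes, chosen because each stands for a group described below and has a start in the RefSeq table. They are *C1qtnf3*, the largest rise, *Acta2*, a contractile actin, *Cyr61*, a CCN matricellular gene, *Hmgcs1*, an early enzyme of sterol synthesis, and *Asns*, asparagine synthetase. Each sequence is the 250 bases upstream of the start in RefSeq (GRCm38.p6), 5′ to 3′ on the strand of the gene. Capitals mark matches to CAGAC (a Smad-binding sequence), CATTCC (a TEAD-binding sequence), TCACNCCAC (a sterol regulatory element), TGATGNAA (an amino acid response element), TATAAA and the CArG box with at most 1 deviation from A or T in its 6 central bases. All were searched on both strands except TATAAA, which was read on the strand of the gene.
*C1qtnf3* (chr15:10952082-10952331, plus strand): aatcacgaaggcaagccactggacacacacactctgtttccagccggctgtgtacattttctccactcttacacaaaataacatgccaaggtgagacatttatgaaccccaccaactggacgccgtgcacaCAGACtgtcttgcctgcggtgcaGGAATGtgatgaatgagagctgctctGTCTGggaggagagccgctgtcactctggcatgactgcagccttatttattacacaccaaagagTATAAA
*Acta2* (chr19:34255374-34255623, minus strand): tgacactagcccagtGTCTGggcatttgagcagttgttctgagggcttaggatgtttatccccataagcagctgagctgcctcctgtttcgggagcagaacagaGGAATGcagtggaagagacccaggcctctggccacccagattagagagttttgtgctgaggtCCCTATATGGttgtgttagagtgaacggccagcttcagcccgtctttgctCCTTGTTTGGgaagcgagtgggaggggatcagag
*Cyr61* (chr3:145649986-145650235, minus strand): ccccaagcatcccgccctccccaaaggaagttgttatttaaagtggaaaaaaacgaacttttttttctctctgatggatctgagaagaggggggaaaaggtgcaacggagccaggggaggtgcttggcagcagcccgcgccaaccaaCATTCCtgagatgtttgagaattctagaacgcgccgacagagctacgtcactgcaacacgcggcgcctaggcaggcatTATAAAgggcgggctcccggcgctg
*Hmgcs1* (chr13:119690101-119690350, plus strand): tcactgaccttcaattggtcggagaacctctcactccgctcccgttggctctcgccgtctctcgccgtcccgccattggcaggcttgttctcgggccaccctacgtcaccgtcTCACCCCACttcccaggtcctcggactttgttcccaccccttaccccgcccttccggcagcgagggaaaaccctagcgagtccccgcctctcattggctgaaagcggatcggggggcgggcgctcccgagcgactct
*Asns* (chr6:7693210-7693459, minus strand): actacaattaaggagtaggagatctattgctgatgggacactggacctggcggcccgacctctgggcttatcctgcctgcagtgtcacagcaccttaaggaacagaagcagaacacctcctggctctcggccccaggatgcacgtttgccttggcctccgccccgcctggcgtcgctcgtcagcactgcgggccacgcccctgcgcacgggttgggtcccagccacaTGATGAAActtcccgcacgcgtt
In *Acta2* the CArG boxes, which bind serum response factor, begin 84 and 34 bases before the start, and a CATTCC and a CAGAC match on the reverse strand begin 146 and 235 bases before it. In *Cyr61* the CATTCC match begins at 103 and TATAAA at 25 bases before the start. In *C1qtnf3* both CAGAC matches begin 119 and 70 bases, the CATTCC match 96 bases and TATAAA 6 bases before the start. The sterol element of *Hmgcs1* begins at 137 bases and the amino acid element of *Asns* at 23 bases before the start. None of the capitals in these 5 sequences overlap.

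Promoters were found for 58 of the 90 up-regulated rows and 38 of the 52 down-regulated rows. Of 15387 promoters of genes in the table, 41.4% held CAGAC, against 42.9% of 70 promoters of up-regulated genes and 31.8% of 44 of down-regulated genes. CATTCC was in 11.2% of all, 11.4% of up-regulated and 13.6% of down-regulated promoters, and in 1 of the 11 promoters of matricellular and CCN genes, that of *Cyr61*. Those 11 belong to 8 of the 18 genes of that list, and *Ctgf*, *Wisp1* and *Wisp2* are not among them. CArG boxes were in 8.05% of all, 14.3% of up-regulated and 6.82% of down-regulated promoters, and in 8 of the 29 promoters of contractile and actin genes. The amino acid element was in 2.40% of all promoters, 7.14% of up-regulated and 2.27% of down-regulated ones, and in 6 of the 21 promoters of amino acid genes. TCACNCCAC was in 1.07% of all, 2.86% of up-regulated and 2.27% of down-regulated promoters, and *Hmgcs1* was the only one of 20 sterol and fatty acid genes with a promoter that held it. TGACTCA, an AP-1 sequence, was in 3.88%, 7.14% and 6.82%, and TATAAA in 5.73%, 14.3% and 9.09%, in the same order. A match is a run of letters and was not tested for binding.

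TGF-β up-regulated 90 rows, 0.579% of all rows, and down-regulated 52, 0.334% of all rows, so that 63.4% of the calls were rises. That share depended on the pseudocount, with 243 rises and 246 falls (49.7% rises) at a pseudocount of 0.1 and 464 and 397 (53.9%) with none. The rises ran from 1.004 to 4.51 with a median of 1.28, and 20 of them passed 2, a 4-fold change. Falls reached -2.27 with a median of -1.18, and 2 passed -2. The up-regulated genes took 0.672% of the summed FPKM in CTRL and 2.06% in TGF-β, and the down-regulated genes took 0.762% and 0.298%. Many of the rising genes started low, with 17 under 1 FPKM and 40 between 1 and 10 in CTRL. Most of the transcriptome lay close to 0. Of the 9228 rows with a mean of at least 1 FPKM, 91.7% changed by less than 0.5, and their median change was -0.07. The counting interval excluded a ratio of 1 for 88 up-regulated and all 52 down-regulated rows, and no interval could be had for the other 2. These rows were picked for a large change between the same libraries, so the intervals lend the calls no support of their own. With GDF15, 45 rows (0.289%) passed 2-fold in either direction. Of the up-regulated rows, 59 lay outside the genes that passed 2-fold with GDF15 and 31 within them, and of the down-regulated rows 43 lay outside and 9 within. Rows outside can still differ from CTRL with GDF15. Of them, 45 of the 59 rises and 30 of the 43 falls changed with GDF15 by more than 0.5 in the same direction. *Eln*, described below, is among them. Both comparisons share the CTRL library. The count of falls was the less stable one: with both libraries scaled to a common upper quartile, 98 rows rose and 41 fell, and with a pseudocount of 0.5 in place of 1, 116 rose and 80 fell. Among the genes named below, the falls of *Car9*, *Slc27a1*, *Psmb10*, *Dbp*, *Abca8b*, *Rnaseh2c*, *Ccdc28b* and *Gm5077* did not pass under that scaling. The falls of *Fcna* and *Bglap* and the rises of *Ogn* and *Tfrc* did not pass once the dependence of the change on length and GC content was removed. Across 5373 rows with a mean of at least 10 FPKM, which come from the same libraries and are not replicates, the Spearman correlation of the change was 0.26 with transcript length and -0.33 with GC content.

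**Figure D1:**
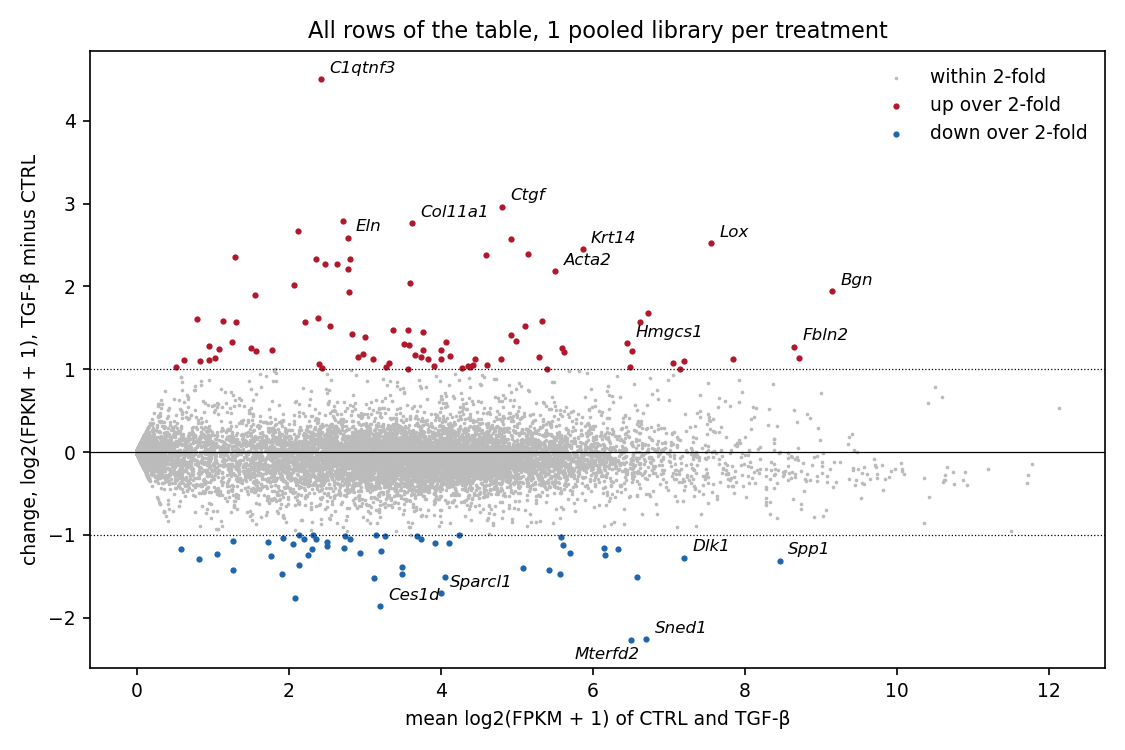
Change of each row (vertical axis, log2(FPKM + 1), TGF-β minus CTRL) against its mean level (horizontal axis, log2(FPKM + 1)), 1 point per row. The 90 red and 52 blue points lie beyond the dotted 2-fold lines, and the red points reach 4.51 where the blue ones reach -2.27.

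The largest rise was *C1qtnf3*, which encodes a secreted C1q and TNF related protein. It was at 0.124 FPKM with no stimulation, 11.3 with GDF15 and 24.6 with TGF-β, a change of 4.51. Only about 4.91 fragments were behind the CTRL value, so that the 198-fold ratio has a counting interval of 82.8 to 599. *Ctgf*, the CCN family gene long used as a reporter of TGF-β signalling, went from 9.03 to 77.3 FPKM, 8.55-fold, with GDF15 at 41.3. Its relatives *Wisp1* (1.496 to 16.2 FPKM), *Wisp2* (14.5 to 80.1) and *Cyr61* (3.37 to 10.7) rose as well. Another CCN family member, *Nov*, fell from 2.198 to 0.363 FPKM, a change of -1.23.

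The matricellular list holds matrix proteins that bind cells and growth factors. In it, *Postn* (periostin) rose from 0.7298 to 10.02 FPKM and *Ccdc80* from 11.5 to 73.3. The osteopontin gene *Spp1* fell from 556 to 224 FPKM, a change of -1.31. Of the 18 matricellular and CCN genes, 6 rose and 2 fell, 15 were higher in TGF-β, and the median change was 0.56, or 0.98 with no pseudocount. Over all rows the median was 0, with 32.4% of rows higher and 47.0% lower. The other 3196 rows were equal, 3195 of them at 0 in both libraries. Among the rows that differed, 5040 were higher and 7318 lower. Abundant members lay within 2-fold, such as fibronectin, *Fn1*, at 3738 and 5385 FPKM, *Sparc* at 1108 and 1666, and *Thbs2*, thrombospondin 2, at 141 and 90.96.

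Of 20 collagen genes, 5 rose and none fell, with a median of 0.34, or 0.62 with no pseudocount and 0.66 over those with a mean of at least 1 FPKM. The risers were chains of types V, VIII, XI and XII. *Col11a1* rose from 3.72 to 31.04 FPKM (8.34-fold), *Col8a1* from 9.597 to 53.999 (5.63-fold) and *Col12a1* from 1.99 to 8.203 (4.11-fold). Both measured type V chains rose, *Col5a2* from 283 to 621 FPKM and *Col5a1* from 98.96 to 199.5, the latter only just past the criterion. The chains of type I collagen, the main fibrillar collagen of connective tissue, lay under 2-fold, *Col1a1* at 1103 and 1902 FPKM and *Col1a2* at 1233 and 1948. *Col3a1*, the most abundant collagen transcript in CTRL, was lower, at 3738 and 3092 FPKM, and was at 4484 with GDF15. Both measured type VI chains were also lower, with *Col6a1* at 817 and 687 and *Col6a2* at 549.6 and 488 FPKM.

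Of 17 elastic fibre genes, 6 rose and none fell, with a median of 0.52. Elastin itself, *Eln*, rose from 1.79 to 15.8 FPKM (8.83-fold, counting interval 7.29 to 10.7), with GDF15 at 4.53. The fibulins *Fbln5* (17.6 to 48.5 FPKM) and *Fbln2* (257 to 622), which assist fibre assembly, rose, as did the latent TGF-β binding protein *Ltbp2* (19.4 to 57.8). The microfibril-associated *Mfap5* rose from 9.91 to 22.9 FPKM. *Mfap4* was at 0.0816 FPKM in CTRL, about 2.29 fragments, and at 4.53 in TGF-β, with a counting interval of the ratio from 17.2 to 531. *Fbn1*, the fibrillin of the microfibril, was at 95.7 and 184 FPKM, just under 2-fold. *Efemp1* went the other way, at 531 and 344 FPKM.

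The proteoglycan list held small leucine-rich proteoglycans, which bind collagen fibrils and growth factors. *Bgn* (biglycan) rose from 290.3 to 1117 FPKM and was the most abundant of all up-regulated transcripts in TGF-β. *Aspn* (asporin) rose from 1.29 to 10.5 and *Ogn* from 12.6 to 26.6 FPKM, the latter lower in TGF-β than in GDF15 (33.9). *Dcn* (decorin), the relative of *Bgn*, was at 419 FPKM with no stimulation, 408 with GDF15 and 249 with TGF-β, a change of -0.75 that did not pass the criterion. In all, 3 of 13 proteoglycan genes rose and none fell, 10 were higher and 3 lower, and the median was 0.16, or 0.61 with no pseudocount and 0.76 over those with a mean of at least 1 FPKM. Among 21 genes that process or crosslink collagen, 2 rose. *Lox*, the lysyl oxidase that crosslinks collagen and elastin, rose from 78.05 to 452 FPKM, and *P4ha3*, a prolyl 4-hydroxylase subunit, from 7.42 to 18.01. The other lysyl oxidases did not pass 2-fold, with *Loxl1* at 46.98 and 47.5 FPKM and *Loxl3* at 16.4 and 16.9.

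**Figure D2:**
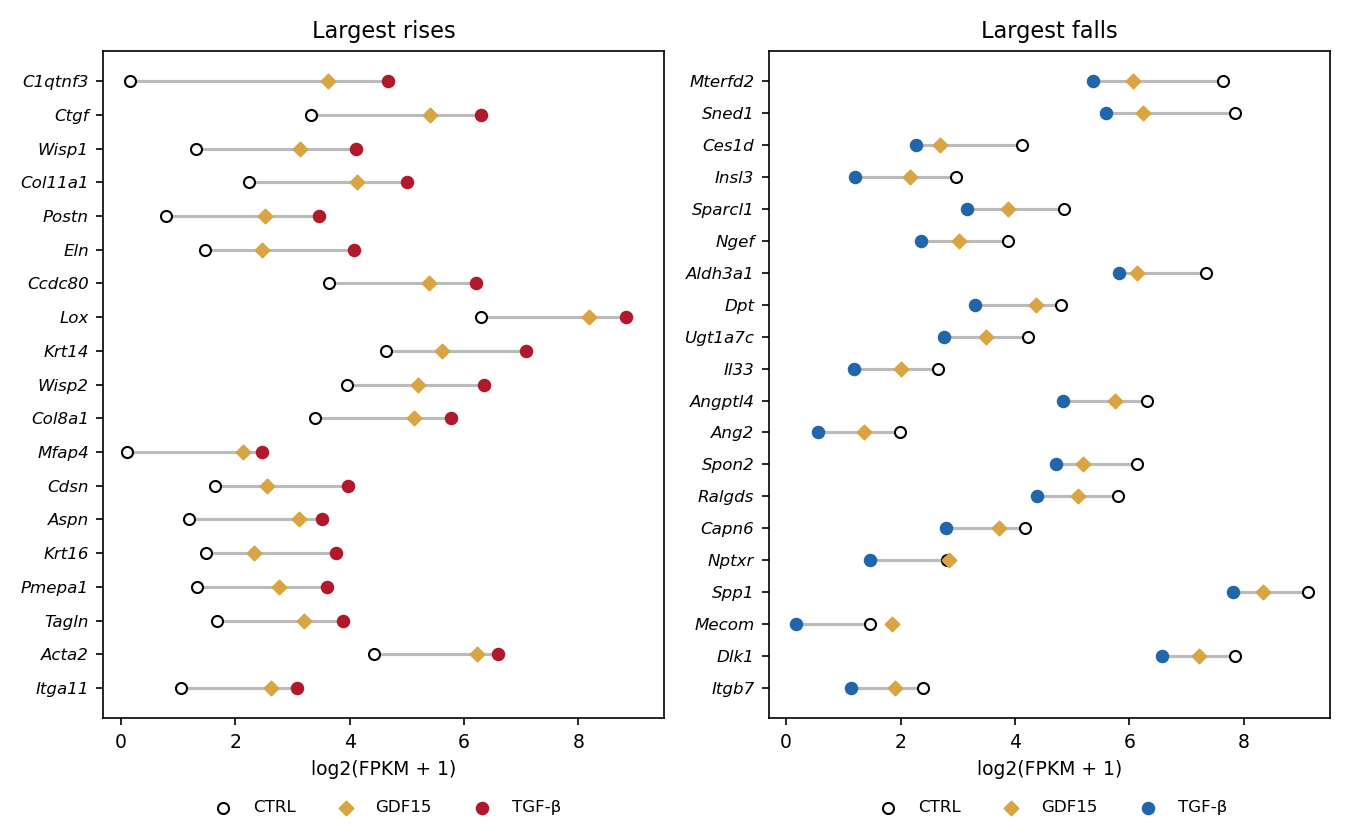
Levels (log2(FPKM + 1)) in CTRL, GDF15 and TGF-β for 19 of the 20 largest rises and for the 20 largest falls, 1 library per treatment. *C1qtnf3* runs from 0.124 FPKM in CTRL to 24.6 in TGF-β at the top of the rises, and *Mterfd2* and *Sned1* head the falls.

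Of 31 contractile and actin genes, 3 rose and none fell, with a median of 0.14. *Acta2*, smooth muscle α-actin and the usual marker of myofibroblasts, was at 20.4 FPKM with no stimulation, 73.6 with GDF15 and 96.1 with TGF-β. *Tagln* (transgelin) rose from 2.204 to 13.8 FPKM. *Tnnt2*, a troponin of cardiac muscle, rose from 0.531 to 4.71 FPKM. Among other smooth muscle markers, *Myh11* was at 0.403, *Cnn1* at 0.0628 and *Des* at 0.2303 FPKM in TGF-β, and *Myocd* was listed at 0. *Smtn*, smoothelin, was at 48.4 FPKM in CTRL and 45.3 in TGF-β. Of the other 9 striated muscle markers, only *Nkx2-5* reached 1 FPKM, at 3.801 in CTRL and 2.76 in TGF-β. Tropomyosins differed among themselves, with *Tpm1* at 77.1 and 78.6 FPKM and *Tpm2* at 90.2 and 61.01. For adhesion, the collagen receptor subunit *Itga11* rose from 1.08 to 7.43 FPKM and *Itgb5* from 56.3 to 169, whereas *Itgb7* fell from 4.24 to 1.201. These were the only 3 over 2-fold of 21 integrin, syndecan and cadherin genes.

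Within the pathway itself, 3 feedback genes rose, and no SMAD, ligand or receptor passed 2-fold. *Pmepa1*, which sequesters receptor SMADs, rose from 1.53 to 11.2 FPKM. *Skil*, which encodes the SMAD corepressor SnoN, rose from 2.45 to 8.86, and *D18Ertd653e* (*Ldlrad4*), another inhibitor of receptor SMADs, from 6.16 to 18.8 FPKM. *Smad7*, the inhibitory SMAD, was at 2.58 and 4.36 FPKM, under 2-fold. *Smad2* (6.93 and 7.63), *Smad3* (15.9 and 13.4) and *Smad4* (24.8 and 25.7 FPKM) differed little between the libraries. Of 21 genes of this list, 3 rose and none fell, with a median of 0.11. Among 31 ligands, receptors and antagonists of the TGF-β family none passed 2-fold, with a median of 0. The receptors *Tgfbr1* (5.08 and 6.56 FPKM) and *Tgfbr2* (14.4 and 15.7) were a little higher, and the co-receptor *Tgfbr3* was lower (45.7 and 30.2). The antagonist *Fstl1* (249 and 441.4 FPKM) was higher without passing the criterion.

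Genes known from stratified epithelium were among the large rises. *Krt14*, a keratin of basal epidermal cells, was at 24.01 FPKM with no stimulation, 48.2 with GDF15 and 136 with TGF-β. *Krt16* rose from 1.82 to 12.6 FPKM, *Krt17* from 0.442 to 3.28, and *Cdsn*, which encodes the cornified layer protein corneodesmosin, from 2.14 to 14.8. *Anxa8*, an annexin, rose from 58.4 to 189 FPKM. These 5 were the only genes over 2-fold of 25 keratin and cornified envelope genes. The median of the 25 was 0.00, with 9 of them at 1 FPKM or more in either library, and it was 1.57 over the 9 with a mean of at least 1 FPKM. That value is the change of *Krt17*, which reached this mean only through its TGF-β level. *Krt5*, the usual partner of *Krt14*, was listed at 0 in both libraries, as were *Krt1*, *Epcam*, *Perp* and *Cldn4*. Of 14 keratinocyte or epithelial markers, 4 were at 1 FPKM or more in each library (*Krt14*, *Col17a1*, *Itgb4* and *Krt10*), and the last 3 of these were lower in TGF-β. Their summed level went from 39.2 to 147 FPKM, of which *Krt14* made up 24.01 and 136. The part of other cells in these rises was not tested.

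Rises were frequent in sterol and fatty acid synthesis. Of 30 genes, 12 rose, none fell, 29 were higher in TGF-β, and the median was 0.90. Cholesterol is built from acetyl-CoA through mevalonate, squalene and lanosterol, and the transcription factor SREBP2 controls the genes of this route together. Of 18 enzymes along it, *Acat2* included as the first step, all 18 were higher in TGF-β than in CTRL and than in GDF15, by 1.18 to 2.67 times CTRL. The 11 that rose lay along the route. *Hmgcs1* went from 54.7 to 138 FPKM, with GDF15 at 85.9. *Idi1*, the isomerase of isoprenoid units, went from 30.3 to 74.01, and *Sqle*, squalene epoxidase, from 99.5 to 214 FPKM. Among the enzymes after lanosterol, *Cyp51* rose from 59.3 to 139, *Tm7sf2* from 9.42 to 23.6 and *Hsd17b7* from 9.602 to 25.6 FPKM. *Dhcr7*, a late reductase, was at 20.97 and 32.8 FPKM, under 2-fold. The summed level of the 18 enzymes was 619.8 FPKM with no stimulation, 804 with GDF15 and 1314 with TGF-β.

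Other genes of the list act next to the route. *Insig1*, which holds SREBP in the endoplasmic reticulum when sterols are plentiful, was at 77.8 and 146 FPKM, under 2-fold. *Srebf2* itself was at 62.4 and 83.2 FPKM and *Srebf1* at 21.8 and 19.8, the latter the single lower gene of the list. For fatty acids, *Scd2*, a desaturase, rose from 155 to 339 FPKM, while *Scd1* (50.9 and 72.6), *Fasn* (34.7 and 50.5) and *Acaca* (6.93 and 10.4) stayed under 2-fold. None of these genes rose over 2-fold with GDF15, where *Sqle* was at 138 and *Scd2* at 211 FPKM.

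**Figure D3:**
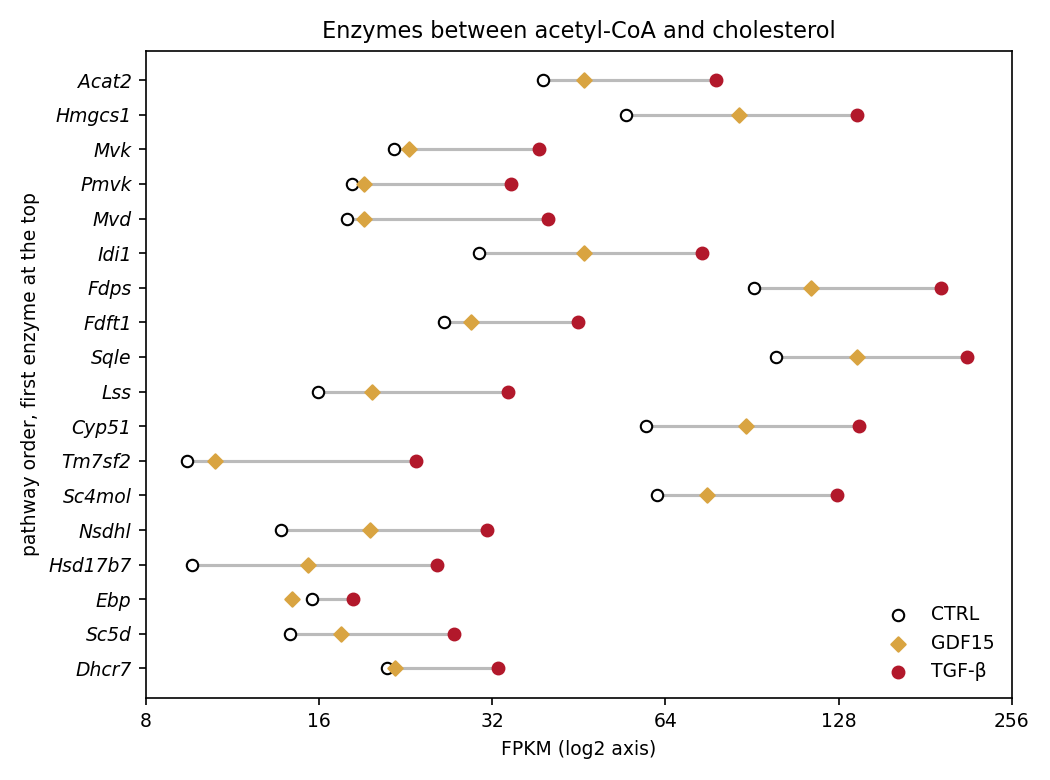
FPKM (log2 axis) of 18 enzymes in pathway order in CTRL, GDF15 and TGF-β. The red TGF-β point lies to the right of both others in all 18 rows. The last steps can run in more than one order.

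Amino acid synthesis was a further group. Of 20 genes of amino acid supply and targets of the stress factor ATF4, 4 rose, none fell and 17 were higher, with a median of 0.54. *Asns* went from 31.5 to 74.2 FPKM and *Mthfd2*, a mitochondrial folate enzyme, from 7.92 to 20.01. *Pycr1*, which makes proline, rose from 4.87 to 11.8 FPKM, and *Aldh18a1*, earlier on the same route, was at 16.4 and 31.6, under 2-fold. The serine enzymes *Phgdh* (16.2 and 29.4 FPKM) and *Psph* (6.57 and 10.6) were higher within 2-fold. *Trib3*, a pseudokinase induced by ATF4, rose from 13.9 to 29.9, while *Ddit3*, the CHOP gene of the same stress response, was lower, at 71.8 and 47.8 FPKM. The glutamine transporter *Slc1a5* rose from 28.8 to 58.8, and the folate enzyme *Aldh1l2* from 7.25 to 21.5 FPKM. *Aldh1l2* overlaps *D10Wsu102e* on the opposite strand by 1056 bases, and the partner was at 12.3 and 10.7.

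Of 20 glycolysis and hypoxia genes, 18 were higher, none rose over 2-fold and the median was 0.31, with *Ldha* at 183 and 271 FPKM and *Pgk1* at 235 and 341. The exception over 2-fold was *Car9*, a carbonic anhydrase induced by hypoxia, which fell from 4.44 to 1.66. Of 21 genes of folding and export in the endoplasmic reticulum, 17 were higher, none passed 2-fold, and the median was 0.22. *Pdia6*, a disulfide isomerase, was at 133 and 214 FPKM and the chaperone *Hspa5* at 235 and 309.

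Several signalling genes rose. The Notch target *Hes1*, a transcriptional repressor, went from 2.57 to 12.6 FPKM, and the Notch ligand *Jag1* from 10.6 to 25.02. They were the only genes of 30 in the Wnt and Notch list to pass the criterion. The low Wnt effectors *Lef1* (0.711 and 1.57 FPKM) and *Tcf7* (0.0525 and 0.413) were higher without passing it, and *Notch1* was at 7.05 and 5.58. The growth arrest and stress genes *Gadd45b* (3.97 to 12.1 FPKM) and *Gadd45g* (6.28 to 16.99) rose, while the cell cycle inhibitor *Cdkn1a* (p21) was at 240.0 and 199 and *Myc* at 35.7 and 32.4. *Igfbp7*, an insulin-like growth factor binding protein, rose from 18.9 to 49.4 FPKM, whereas *Igfbp6* was at 375 and 255.9. *Adam12*, a metalloprotease, rose from 0.0429 FPKM in CTRL, about 5.91 fragments, to 1.26 in TGF-β. *Lgr4*, an R-spondin receptor, rose from 25.4 to 57.5, and *Tfrc*, the transferrin receptor, from 7.401 to 15.9 FPKM. The iron exporter *Slc40a1* rose as well, from 2.67 to 6.65. *Il4ra*, the interleukin 4 receptor, rose from 13.6 to 28.9, and *F2r*, a thrombin receptor, from 9.496 to 20.5 FPKM.

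The deepest falls were *Mterfd2*, a mitochondrial transcription terminator family gene, and *Sned1*, which encodes a secreted matrix protein. *Sned1* was at 228 FPKM with no stimulation, 74.7 with GDF15 and 46.9 with TGF-β, and *Mterfd2* at 198, 65.7 and 40.4. The exons of the pair overlap by 1855 bases on opposite strands. The libraries were made with a stranded kit, but whether strand was used in counting is not stated. Reads in the shared bases therefore cannot be assigned to either gene here. The next was *Ces1d*, a carboxylesterase, which fell from 16.5 to 3.83 FPKM (4.31-fold). *Insl3*, an insulin-like hormone, fell from 6.83 to 1.31 and shares 404 bases with *Jak3*, which was at 12.9 and 10.4. The matrix genes *Sparcl1* (28.1 to 7.94 FPKM), *Dpt*, dermatopontin (27.03 to 8.87), and *Spon2* (69.3 to 25.2) fell.

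In the growth factor and the cytokine list, the genes that passed the criterion fell, while the CCN genes that rose stand in another list. *Prl2c2* and *Prl2c3*, the proliferin genes first found in dividing mouse fibroblasts, fell from 120.3 to 53.05 and from 105 to 46.4 FPKM. They are near-identical copies, and together they went from 225 to 99.5. *Ptn* (pleiotrophin) fell from 71.01 to 32.1 FPKM, and these 3 were the only ones over 2-fold of 29 growth factor genes. Of 26 cytokine and chemokine genes, *Il33* (5.27 to 1.26 FPKM) and *Tslp* (10.7 to 4.02), both alarmins, fell, and the median was -0.06, or -0.34 over the 12 with a mean of at least 1 FPKM. *Ccl2*, the most abundant of them, was at 123 and 114. *Dlk1*, a non-canonical Notch ligand known as preadipocyte factor 1, fell from 229 to 94.2 FPKM.

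Complement components *C3* (7.29 to 2.91 FPKM) and *C1s* (21.2 to 9.401) fell, and so did *Fcna*, a ficolin (5.66 to 2.21). Of 23 interferon and antigen presentation genes, 1 fell, none rose and 18 were lower, with a median of -0.28. The gene that fell was *Ifit3*, from 7.43 to 2.84 FPKM. *Gbp2* (14.9 and 7.83 FPKM), *Irf1* (33.6 and 21.8) and *B2m* (663 and 493) were lower within 2-fold, whereas *Isg15* was at 3.43 and 3.65. Outside that list, the immunoproteasome subunit *Psmb10* fell from 17.4 to 8.09, the cytokine signalling suppressor *Socs1* from 12.99 to 5.13, and *H2-T23*, which has close paralogs, from 8.89 to 3.45 FPKM.

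Some genes of lipid handling and detoxification fell and others rose, in a grouping made after their values were seen. Those that rose were *Scd2*, above, *Apobr*, a lipoprotein receptor (2.83 to 6.75 FPKM), and *Dhrs3*, a retinal reductase (6.704 to 17.8). *Apobr* overlaps *Cln3* by 442 bases and *Il27* by 103 bases on the opposite strand, with *Cln3* at 1.57 and 1.15 FPKM and *Il27* listed at 0. *Aldh3a1*, an aldehyde dehydrogenase, fell from 160.4 to 55.7 FPKM, and *Xdh*, xanthine dehydrogenase, from 78.4 to 33.3. The glutathione transferases *Gstm1* (223 and 119 FPKM) and *Gsta4* (47.7 and 26.1) were lower within 2-fold. In the same redox list *Cbr2*, a carbonyl reductase, rose from 13.3 to 28.4. *Ugt1a7c*, a glucuronosyltransferase, fell from 17.7 to 5.74 FPKM, but it shares exons with its gene family, among them *Ugt1a6a* at 17.6 and 11.3. *Angptl4*, a secreted inhibitor of lipoprotein lipase, fell from 77.8 to 27.5 FPKM, the fatty acid transporter *Slc27a1* from 9.08 to 3.87, and the lipid phosphatase *Ppap2b* from 109.6 to 45.6. *Gpihbp1*, which carries lipoprotein lipase to the capillary surface, was at 1.26 FPKM in CTRL and listed at 0 in TGF-β, at least 10.8-fold lower when 3 fragments are taken as the floor and the CTRL value as exact, and at least 8.37-fold lower by the counting interval.

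*Twist2* was the 1 gene over 2-fold of 18 mesenchymal transcription factors and fell from 24.3 to 10.9 FPKM. *Snai1* was higher, at 13.1 and 21.7 FPKM, and *Snai2* lower, at 43.2 and 26.2, and 14 of the 18 were lower, with a median of -0.16. *Dbp*, an output gene of the circadian clock, fell from 18.4 to 8.33, the only one over 2-fold of 17 clock genes, and it overlaps *Sphk2* on the opposite strand by 539 bases. *Ralgds*, a Ras effector, fell from 54.4 to 19.98 FPKM, *Capn6*, a calpain, from 17.1 to 5.94 and *Ngef*, a guanine nucleotide exchange factor, from 13.8 to 4.13. The receptors *Ptgfr* (prostaglandin F; 5.12 to 1.84 FPKM) and *Adra1b* (adrenergic; 6.42 to 2.28) fell. Of 22 immediate early and ERK feedback genes none passed 2-fold, 17 were lower and the median was -0.20, with *Spry2* at 50.01 and 27.4 FPKM and *Egr1* at 27.4 and 17.2. Of 30 proteases and inhibitors, *Adam12* rose, as given above, *Klk8* fell from 6.35 to 2.103 and 21 were lower, among them *Ctsl*, the most abundant, at 1772 and 977 FPKM. The bone gene *Bglap* fell from 6.38 to 2.56, with its near-identical neighbour *Bglap2* at 8.33 and 5.23.

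No gene of DNA replication and mitosis passed 2-fold, yet 23 of the 29 genes were lower, with a median of -0.36. The 2 processes differed in size, a split that was made after the values were seen. The 14 genes of replication and its G1/S regulators ran from -0.36 to 0.29 with a median of -0.08. *Pcna*, the polymerase clamp, was at 65.3 and 69.2 FPKM, *Mcm2*, a subunit of the replicative helicase, at 11.02 and 11.05, and cyclin E1, *Ccne1*, at 3.29 and 4.25. All 15 genes of mitosis were lower, from -0.85 to -0.32 with a median of -0.49, and all 15 were lower in TGF-β than in GDF15. *Plk1*, a mitotic kinase, was at 11.03 FPKM with no stimulation, 8.64 with GDF15 and 5.66 with TGF-β. *Cdc20*, the activator of the anaphase-promoting complex, was at 32.8, 28.2 and 19.2 FPKM, and *Ccnb1*, cyclin B1, at 13.2, 13.6 and 8.62. *Pttg1* (securin), which guards the cohesion of sister chromatids until anaphase and was in no list, lay just short of the criterion at 33.997, 23.6 and 16.6 FPKM. The summed level of the mitosis genes was 257 FPKM with no stimulation, 247 with GDF15 and 173 with TGF-β, and that of the replication genes was 222, 223 and 214. By BrdU incorporation, the study reported that GDF15 and TGF-β each promoted proliferation of NIH3T3 cells. Transcript levels do not measure proliferation, and a link between the 2 was not tested.

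**Figure D4:**
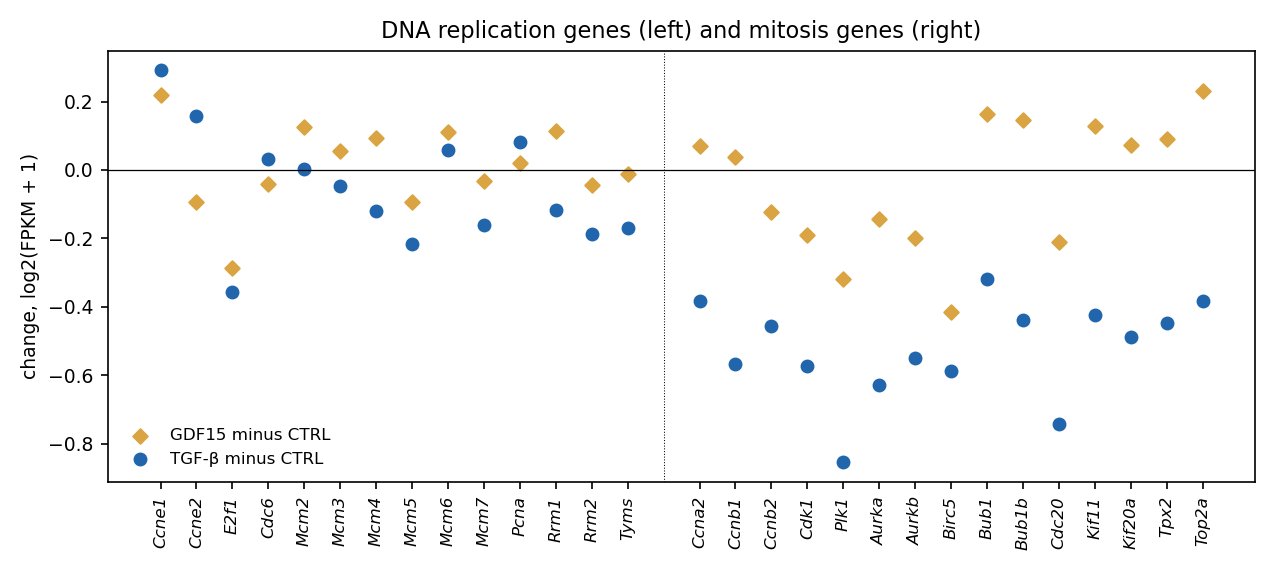
Change against CTRL (log2(FPKM + 1)) of 14 replication genes and 15 mitosis genes with TGF-β and with GDF15, 1 library each and the same CTRL. The TGF-β points of the mitosis genes all lie at -0.32 or lower, and those of the replication genes scatter about 0.

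**Figure D5:**
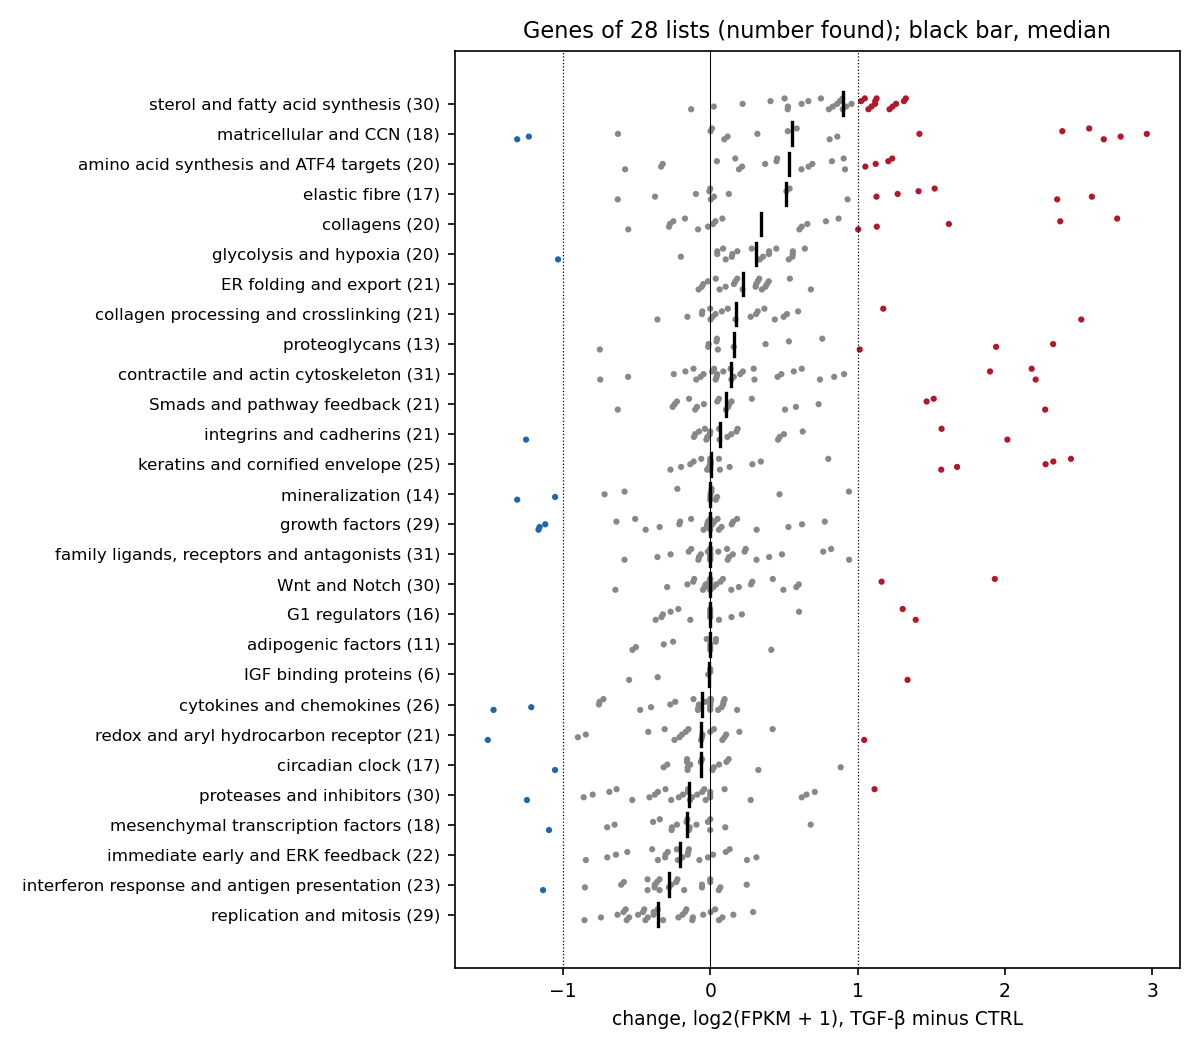
Change of every gene found in 28 lists (horizontal axis, log2(FPKM + 1), TGF-β minus CTRL), 1 point per gene, with the median as a black bar. The median bar stands at 0.90 for sterol and fatty acid synthesis and at -0.36 for replication and mitosis. Red and blue points passed 2-fold.

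The criterion cut through continuous values. The 3 rises just inside it were *Slc1a5* (1.004), *Col5a1* (1.004) and *Tfrc* (1.009), and the 3 just outside were *Plekha7* (0.997), *Elovl6* (0.997) and *Anxa3* (0.983). The 3 falls just inside were *Rnaseh2c* (-1.002), *Ccdc28b* (-1.003) and *Gm5077* (-1.003), and the 3 just outside were *Cela1* (-0.996), *Pttg1* (-0.988) and *Gtf3c5* (-0.987). *Rnaseh2c* overlaps *Kat5* on the opposite strand by 426 bases, and *Kat5* was at 25.9 and 22.7 FPKM. The local spread, a scaled median absolute deviation of the change among rows of similar level, had a median of 0.22 over rows of at least 1 FPKM. It describes variation between genes and not between replicates. Among genes of at least 10 FPKM that did not pass 2-fold, the 10 furthest above their neighbours in these units included the sterol gene *Acat2* (39.2 and 78.4 FPKM). They also held *Bhlhe40*, a clock-linked repressor (18.5 and 34.95 FPKM), and *Acsl3*, a fatty acid activating enzyme (23.4 and 40.2). Those furthest below included *Slpi*, a secreted protease inhibitor (46.9 and 24.8 FPKM), *Rarres2*, which encodes chemerin (15.4 and 7.799), and *Sorbs3*, which encodes the adhesion protein vinexin (95.6 and 50.9).

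*Mecom*, a zinc finger transcription factor gene, occupied 2 rows that moved in opposite directions. One went from 0.245 to 2.01 FPKM and the other from 1.77 to 0.129, and their sum went from 2.01 to 2.14. Summed over its rows, *Mecom* passed 2-fold in neither direction. *Raet1b* and *Lgals6*, which have near-identical paralogs, were counted among the rises with TGF-β levels of 2.04 and 1.05 FPKM from values next to 0, and their fragments could not be estimated. *Crip1* rose from 0.2196 to 1.61 FPKM on about 1.28 fragment in CTRL, with a counting interval of the ratio from 1.2999 to 411.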

How the data were processed

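RNA-seq of NIH3T3 fibroblasts was compared between 1 TGF-β library and 1 CTRL library, each made from RNA pooled over 3 samples and sequenced as 50-base single reads. Groups came from the sample labels. The deposited values are FPKM, calculated by the authors with Cufflinks 2.0.2 and restricted to reviewed protein coding genes. The submitters' processing notes also name TopHat 1.3.2, Bowtie 0.12.9 and mm10. The libraries were made with a stranded mRNA kit, but whether strand was used in counting is not given in the sources used here.

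From the FPKM, log2(FPKM + 1) differences were computed for all 15554 rows in Python 3.11.15 (pandas 2.3.3, numpy 2.4.6, matplotlib 3.10.9, scipy 1.17.1). A difference over 1 was called. Fragments per gene were estimated from low FPKM multiplied by transcript length less 200 bases, at the depth that made most products whole, with 78.0% to 78.5% of 372 to 386 low values per library within 0.15 of a whole number. Intervals are exact binomial intervals of those fragments at 95%, and 3 fragments were the floor. With 1 library per treatment there was no test. Lengths and exon overlaps were read from the GENCODE M21 annotation of GRCm38, which covered 15461 rows (14713 under the same symbol, 748 through a former name) and may not be the annotation behind the FPKM. Promoters came from RefSeq (GRCm38.p6).

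The genes named were the 20 largest rises and falls, list members over 2-fold, up to 4 abundant members per list, the 3 genes on either side of the criterion, the 10 most outlying genes each way under 2-fold, and other called genes by role. A few further members and marker genes were named after their values were seen. The comparison, the 28 gene lists and the markers were chosen with earlier results of these data known. Alternatives were other pseudocounts, a minimum mean FPKM of 1, upper quartile scaling, and removal of trends with expression or with transcript length and GC content. Summing rows of 1 symbol was added after seeing the data. Calls and spreads were tested on simulated data. The values of some genes are not reported here.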

Additional observations from a re-analysis of the deposited data

How the results depend on the processing

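The precision is limited by having 1 pooled library per treatment: none could be left out. No paired analysis was possible because the groups hold 1 sample each. Depth limits the genes under about 1 FPKM, which the pseudocount decides. The rises and falls over 2-fold numbered 116 and 80 with a pseudocount of 0.5, 243 and 246 with 0.1, and 464 and 397 with none, because the ratios of genes at low levels then count in full. They numbered 87 and 50 with a mean FPKM of at least 1, 98 and 41 with upper quartile scaling, 102 and 39 both with the running median removed and with the length and GC trend removed, and 89 and 51 with rows of 1 symbol summed. Of the calls on symbols with 1 row, 89 rises and 51 falls, all 89 rises passed under upper quartile scaling and 87 with the length and GC trend removed, against 40 and 38 of the falls. The falls lost under scaling were *Rnaseh2c*, *Ccdc28b*, *Gm5077*, *Aif1l*, *Abca8b*, *Dmpk*, *Psmb10*, *Pdlim2*, *Car9*, *Slc27a1* and *Dbp*, all close to the criterion. *Fcna*, *Bglap*, *Sap25*, *Ogn* and *Tfrc* lost their call under a trend removal. The 249 genes checked, 140 called and 109 under 2-fold, gave 1968 values under the 8 alternatives, of which 1785 moved by less than the local spread and the others further. *Smtn* changed direction, from -0.09 to 0.04 with the length and GC trend removed. The called genes were chosen for large changes, so that their direction says nothing of stability. Of 224 list medians, 208 moved by less than the median local spread. The others were collagens (0.62 with no pseudocount, 0.66 with a mean of at least 1 FPKM), proteoglycans (0.38 with a pseudocount of 0.1, 0.61 with none, 0.76 with the minimum), matricellular and CCN genes (0.82 with 0.1, 0.98 with none), IGF binding proteins (-0.36 with none and with the minimum), Wnt and Notch genes (0.29 with none, 0.24 with the minimum), proteases and inhibitors (-0.43 with none), and, with the minimum, cytokines and chemokines (-0.34), keratins and cornified envelope (1.57, the change of *Krt17*, which passes the minimum through its TGF-β level), mineralization (-0.29) and adipogenic factors (-0.25).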

Other observations

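Other called genes fell outside the groups above. *Sulf1*, a sulfatase that trims heparan sulfate, rose from 0.271 to 2.796 FPKM on about 27.04 fragments in CTRL, and *Ptx3*, a secreted pentraxin, from 5.81 to 12.8. *Foxs1*, a forkhead transcription factor, rose from 0.386 to 2.28 FPKM, *Fhl1*, a LIM domain gene of muscle, from 0.831 to 3.38, and *Shroom3*, which shapes the actin of epithelial cells, from 1.26 to 4.28. The kinase *Nuak2* rose from 4.08 to 10.2 FPKM and *Arhgap29*, a GTPase-activating gene, from 8.697 to 20.1. *Sertad4* rose from 22.2 to 68.7 FPKM and was at 49.8 with GDF15. Among the falls, *Gpnmb*, a transmembrane glycoprotein, went from 2.51 to 0.6699 FPKM, *Abca8b*, a transporter, from 12.6 to 5.77 (not past the criterion under upper quartile scaling), and *Nptxr*, a pentraxin receptor, from 6.04 to 1.75. *Nptxr* was at 6.23 FPKM with GDF15, next to its CTRL level. The angiogenin *Ang2* fell from 2.96 to 0.478 FPKM on about 38.1 fragments in CTRL and belongs to a family of close paralogs.

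Other lists gave the following values. The medians were 0.06 for 21 integrin, syndecan and cadherin genes, 0 for 30 Wnt and Notch genes (0.29 with no pseudocount), 0 for 29 growth factor genes and 0 for 16 regulators of G1, of which 2 rose. They were -0.06 for 21 redox genes, of which 1 rose and 1 fell, -0.06 for 17 clock genes and -0.14 for 30 proteases and inhibitors (-0.43 with no pseudocount). Of 14 mineralization genes 2 fell, *Spp1* and *Bglap*, with a median of 0.00 (-0.29 over those with a mean of at least 1 FPKM), and *Mgp*, an inhibitor of calcification, was at 1.22 and 3.26 FPKM. Of 6 IGF binding protein genes 1 rose, with a median of -0.01 (-0.36 over those with that mean). No gene of 11 adipogenic factors passed 2-fold and the median was 0 (-0.25 over those with that mean), with *Plin2*, which coats lipid droplets, at 115 and 79.2 FPKM. Among 7 leukocyte or macrophage markers, 4 were at 1 FPKM or more in both libraries, with a summed level of 14.1 in CTRL and 13.3 in TGF-β, with *Ptprc* at 0.148 and 0.0888 and *Aif1* higher, at 1.35 and 2.34. Among 7 bone or cartilage markers, the sum was 81.2 and 70.2 FPKM, most of it *Sox9* at 67.98 and 60.7.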
